A study of Mus musculus with 5 samples.

Results

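Oligodendrocyte precursor cells (OPC) of the mouse central amygdala (CeA) were examined in single-nucleus RNA sequencing libraries from fed and fasted mice. A nucleus was taken as an OPC when it held at least 3 UMIs of Pdgfra and Cspg4 together, no UMI of Gad1 or Gad2, and fewer than 3 UMIs of Mobp, Mag and Mog together. A UMI, or unique molecular identifier, counts 1 captured transcript. This gate found 60 OPC among 7161 nuclei that had 500 to 8000 detected genes and less than 0.8% of their UMIs from mitochondrially encoded genes, out of 23839 barcodes. These 7 gate genes chose the nuclei, so their levels are described and never tested. Mitochondrially encoded genes entered the cut as a sum and stayed in the tests, so their calls are read as a description.

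The 5 libraries are labelled as C57BL6 mouse brain (per the study's methods C57BL/6NRj for wild-type animals and a C57BL/6N background for transgenic lines), and each pooled the CeA of 1 male and 1 female brain, so a library is the unit of replication and the single animals cannot be told apart. Fed replicates 1 and 2 were naive mice of 8 weeks. Fed replicate 3 was of 12 weeks and came from mice carrying the Htr2a-Cre transgene and expressing AAV-DIO-mCherry, a viral reporter switched on by Cre under Htr2a control, so its age, transgene, virus and preparation cannot be told apart. Fasted replicate 1 was made from mice of 8 weeks without food for 20 h, and fasted replicate 2 from mice of 8 weeks without food for 21 h by its label, where the series description gives 20 h for both. As a check for a library deposited more than once, and for nothing else, the OPC sums of each pair of libraries were compared, which gave a chi-square of 1.53 to 2.12 per degree of freedom, and no library was merged with another.

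OPC are the dividing glia of the adult brain from which new oligodendrocytes arise. They carry the PDGF receptor alpha, whose ligand PDGF drives their proliferation and survival, and the chondroitin sulfate proteoglycan NG2, the product of Cspg4. They also receive synapses from neurons through AMPA and GABA receptors. As they differentiate they pass through a committed stage, marked by genes such as Gpr17, Bcas1 and Enpp6, and then switch on the genes of myelin.

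The comparison classes were gated in the same way on other genes. Oligodendrocytes (110 nuclei) held at least 3 UMIs of Mobp, Mag and Mog, inhibitory neurons (4213 nuclei) at least 3 of Gad1 and Gad2, and astrocytes (79 nuclei) at least 3 of Aqp4 and Gja1. Each of these classes also held fewer than 3 UMIs of Pdgfra and Cspg4. Oligodendrocytes and astrocytes held no UMI of Gad1 or Gad2, and astrocytes and inhibitory neurons fewer than 3 of Mobp, Mag and Mog. The 2699 nuclei that met no full set of criteria had no class. Because each class was chosen on genes of the same nuclei, a gene that travels with a gate gene differs between classes by construction. A p-value for a class comparison therefore only sets the difference against the spread between libraries.

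The number of OPC per library was small, at 10, 12 and 9 in the fed libraries (here and below in the order of their replicate numbers) and 11 and 18 in the fasted ones. They were 0.869%, 1.06% and 0.626% of the kept nuclei in the fed libraries, and 0.644% and 1.04% in the fasted ones. Each share rested on few nuclei, as the exact binomial 95% intervals show, which ran from 0.287% to 1.85% over the 5 libraries and, like the other intervals below, cover counting error only. The fed and fasted shares overlapped and their means were close, at 0.852% ± 0.219 (SD, n = 3) and 0.841% ± 0.279 (SD, n = 2). An exact two-sided permutation test of the difference of -0.0112 percentage points gave p = 1.0, and the smallest p that 3 against 2 libraries allow is 0.1. The level of the shares depended on the gate. With up to 2 UMIs of Gad1 and Gad2 allowed, a setting chosen after seeing the data, 100 nuclei passed, and the means were 1.44% ± 0.361 (SD, n = 3) in the fed and 1.36% ± 0.766 (SD, n = 2) in the fasted libraries.

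**Figure D1:**
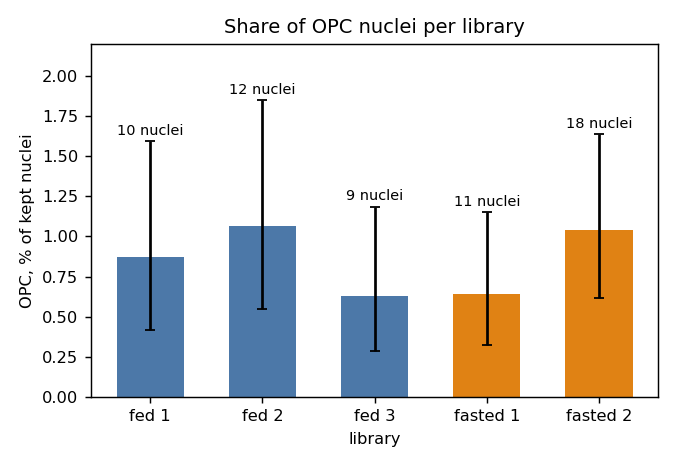
Bars show OPC as a percent of the kept nuclei in each library (fed in blue, fasted in orange), with exact binomial 95% intervals and the number of OPC nuclei above each bar. The fed bars lie between 0.626% and 1.06% and the fasted bars, at 0.644% and 1.04%, fall within that range.

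The nuclei were of moderate depth. An OPC held a median of 6084 UMIs, against 2923 in oligodendrocytes, 4470 in astrocytes and 14654 in inhibitory neurons. The median per library was 3942.5 UMIs in fed replicate 1 and between 6029.5 and 7217 in the other 4. Summed over nuclei, the fed OPC gave 45784, 71211 and 59387 UMIs and the fasted OPC 87944 and 117784. The fasted sums were thus deeper than the fed ones. With every nucleus thinned to 2000 UMIs, a median of 1182 genes was detected in 59 OPC, 1207 in 85 oligodendrocytes, 1225 in 78 astrocytes and 1226.5 in 4210 inhibitory neurons.

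The label was checked against OPC genes that the gate did not use. Levels are given in CPM, the UMIs of a gene summed over the nuclei of a class in a library and scaled to a total of 1000000 UMIs, and ± beside a level is the SD over the 5 libraries. The 13 such identity genes (Vcan, Ptprz1, Tnr, Lhfpl3, Olig1, Olig2, Sox10, Cacng4, C1ql1, Matn4, Neu4, Sox6 and Bcan) together reached between 12325 and 29725 CPM in single OPC, with a median of 23524. The median was 949 CPM in oligodendrocytes, 4433 in astrocytes and 2530 in inhibitory neurons. No nucleus of the oligodendrocyte or astrocyte classes reached the lowest OPC, since their highest nuclei stood at 9203 and 9773 CPM, while the highest inhibitory neuron stood at 13694 CPM.

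Nuclei on either side of the 3-UMI threshold looked as follows. The 5 nuclei with exactly 3 UMIs of the gate genes had identity levels of 20348 to 26124 CPM (median 24460). Of the nuclei that met the other criteria, the 7 with 2 such UMIs ranged from 301 to 22323 CPM (median 16475), and the 21 with 1 UMI had a median of 2719 CPM. All 60 members held Cspg4, 56 held both Cspg4 and Pdgfra, and 4 held no Pdgfra. Of 121 nuclei with at least 3 gate UMIs, 61 carried at least 1 UMI of Gad1 or Gad2 and were not members, 40 of them with only 1 or 2 such UMIs.

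Markers of most other cell types were sparse in OPC, while those of inhibitory neurons and astrocytes were found in nearly all OPC. Markers of mural cells and fibroblasts had 0 UMIs in all 60 OPC. Microglial markers had 8 UMIs in 8 nuclei, endothelial markers 7 UMIs in 6 nuclei, and excitatory neuron markers 2 UMIs in 1 nucleus. The inhibitory neuron markers outside the gate summed to 1332, 1629 and 2694 CPM in the fed libraries and 1831 and 2148 CPM in the fasted ones, with Snhg11 or Syt1 holding the most UMIs. They were not particular to OPC among the glia. In the class comparisons below, 4 were tested against oligodendrocytes, with 0 called higher in OPC and 1 lower (median log2 difference -0.15). Against astrocytes 4 were tested, with 1 higher and 1 lower (median -0.24). The astrocyte list summed to between 842 and 1420 CPM. At least 3 UMIs of these inhibitory neuron markers were held by 60 of the 60 OPC, and of the astrocyte list by 54. The part of these transcripts in the results below was not tested. No OPC was called a doublet. Over all pairs of libraries 58 barcodes were shared, 3 of them between kept nuclei, and none of these 3 was that of an OPC.

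OPC identity genes formed the core of the profile. In the fed libraries Pdgfra stood at 852, 997 and 640 CPM and in the fasted libraries at 1319 and 925 CPM, while Cspg4 stood at 786, 646, 775, 637 and 628 CPM in the same order. Both describe the gate. Vcan, which encodes the proteoglycan versican, stood at 612, 955, 741, 1285 and 1240 CPM in OPC, against 32.0, 27.4, 0, 0 and 7.26 CPM in oligodendrocytes and 16.8 to 25.1 CPM in inhibitory neurons. Its lowest OPC library exceeded the highest library of either class by a wide margin. The difference from oligodendrocytes was 5.96 ± 0.43 on the log2 scale (± SE, edgeR's quasi-likelihood test, Benjamini-Hochberg adjusted p = 1.03e-10). With 6 UMIs in all oligodendrocytes, Vcan passed the filter on low counts through OPC, so it had to differ, as did the other genes below that have few or no UMIs in one class. Their p-values and the counts of lists that hold them are a description of the classes.

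Other identity genes were shared with neurons or with astrocytes to different degrees. At 2000 UMIs per nucleus, a Vcan UMI was seen in 72.3% ± 18.3 of OPC (mean of 5 libraries) but in 3.71% of inhibitory neurons, 6.92% of oligodendrocytes and 9.93% of astrocytes. Unthinned, the shares were 90.1% in OPC and 17.5% in inhibitory neurons, whose median depths were given above. Sox10, the lineage factor of oligodendroglia, was seen in 50.1% of thinned OPC, 33.7% of oligodendrocytes, 0.137% of inhibitory neurons, and had no UMI in astrocytes at full depth. Neu4, a sialidase gene, was seen in 32.7% of OPC, 0.016% of inhibitory neurons, and had no UMI in oligodendrocytes at full depth.

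Tnr and Lhfpl3 were each seen in 100% of thinned OPC, yet also in 67.8% and 81.0% of inhibitory neurons, so against these neurons the levels differed more than the presence of a UMI. Tnr, which encodes the matrix protein tenascin-R, averaged 5214 ± 518 CPM in OPC, 725 CPM in inhibitory neurons and 150 CPM in oligodendrocytes. Lhfpl3 averaged 8908 CPM in OPC, 1470 CPM in inhibitory neurons and 395 CPM in oligodendrocytes. Ptprz1, Sox6 and Bcan were those shared with astrocytes. Ptprz1, a receptor phosphatase that carries chondroitin sulfate, averaged 3263 ± 551 CPM in OPC and 2161 CPM in astrocytes, and Bcan (brevican) averaged 791 ± 136 CPM in OPC and 879 CPM in astrocytes (log2 difference -0.11 ± 0.21, edgeR adjusted p = 0.700).

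**Figure D2:**
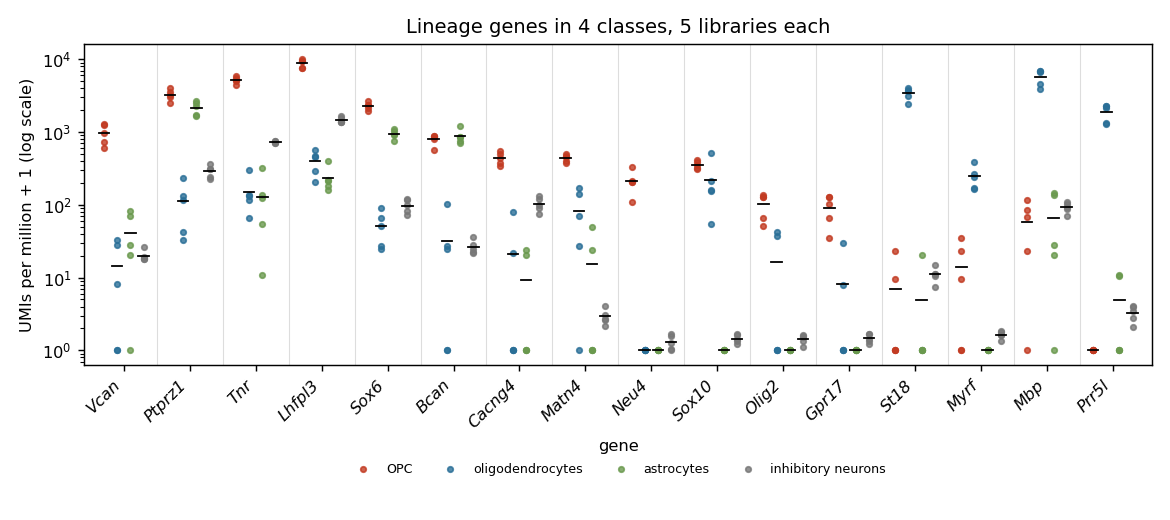
Points show the level of 16 lineage genes in CPM plus 1 (log scale) in each of 5 libraries for OPC (red), oligodendrocytes (blue), astrocytes (green) and inhibitory neurons (grey), and bars mark the mean of the 5 libraries. Vcan, Tnr and Lhfpl3 lie highest in OPC, Ptprz1, Sox6 and Bcan are also high in astrocytes, and St18, Myrf, Mbp and Prr5l are high in oligodendrocytes, with Prr5l at 0 in every OPC library.

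OPC against oligodendrocytes, the mature cells of the same lineage, asked which genes separate precursor from product. Of 1334 genes that passed the filter on low counts, 59.1% were called at an adjusted p under 0.05: 402 (30.1%) higher in OPC and 386 (28.9%) higher in oligodendrocytes. The median difference over all tested genes was -0.07 on the log2 scale, and the libraries of both classes did not overlap for 23.2% of the genes with OPC higher and for 22% with OPC lower. The OPC identity list was higher in 9 of its 9 tested genes (median 4.62), and the myelin and mature oligodendrocyte list was lower in 12 of 12 (median -5.89, or -5.66 with the 2 genes at 0 in OPC set to their bounds), 11 of 12 being called with RLE size factors and with DESeq2.

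The largest differences in favour of OPC included genes with no UMI in the 110 oligodendrocytes. Spon1, which encodes the secreted matrix protein F-spondin (GRCm39, chr7:113364999-113642610), stood at 655, 1081 and 623 CPM in the fed OPC and 625 and 671 CPM in the fasted OPC, and at 0 in every oligodendrocyte library. With a floor of 3 counts over the oligodendrocyte class it was at least 95.9-fold higher in OPC. Itga9, an integrin alpha chain (chr9:118435722-118730072), was at least 37.6-fold higher, at 288 ± 73.7 CPM. Sh3bp4, an endocytic adaptor, and Emid1 were at least 36.6-fold and 35.9-fold higher.

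The promoters of Spon1 and Itga9 are shown as examples that hold lineage motifs, and were picked for holding them. That of Sh3bp4 held the SOX core as well, and that of Emid1 held none of the motifs searched. The sequences are the 250 bases upstream of the annotated start of the canonical transcript on the plus strand (GRCm39, GENCODE vM39), for Spon1 chr7:113364769-113365018 and for Itga9 chr9:118435472-118435721. Capitals mark the E-box CAGCTG in Spon1, and the E-box form CAGATG and the SOX core CTTTGT in Itga9:
Spon1: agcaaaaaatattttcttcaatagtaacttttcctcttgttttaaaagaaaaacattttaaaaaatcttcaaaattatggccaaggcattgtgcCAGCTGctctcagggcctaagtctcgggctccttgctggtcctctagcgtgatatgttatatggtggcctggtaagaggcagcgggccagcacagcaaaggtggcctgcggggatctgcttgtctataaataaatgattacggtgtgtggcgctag
Itga9: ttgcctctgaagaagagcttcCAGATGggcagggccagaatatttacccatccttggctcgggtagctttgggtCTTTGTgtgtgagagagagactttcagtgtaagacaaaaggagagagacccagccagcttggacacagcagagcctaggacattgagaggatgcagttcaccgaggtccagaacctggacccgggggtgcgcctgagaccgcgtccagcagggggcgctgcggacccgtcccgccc

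Both strands were searched for CAGCTG, for CATCTG (on the other strand CAGATG) and for ACAAAG (on the other strand CTTTGT), and these letter strings do not overlap in the promoters shown. Among 22383 promoters of the genes in the files, 12.1% held CAGCTG, 13.2% held CATCTG or CAGATG, and 16.1% held ACAAAG or CTTTGT. Among the 14 genes named as most enriched in OPC over oligodendrocytes, 1 held CAGCTG, 1 held CATCTG or CAGATG, and 4 held ACAAAG or CTTTGT. These matches describe letters in a window and not binding.

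Beside these, the rule named Xylt1, Megf11 and further genes. Xylt1, the xylosyltransferase that starts the sugar chains of proteoglycans, stood at 3058, 3440 and 3620 CPM in the fed OPC and 3002 and 2836 CPM in the fasted OPC, against 0 to 68.4 CPM in oligodendrocytes. Its groups did not overlap, and the difference was 6.54 ± 0.40 on the log2 scale (edgeR adjusted p = 8.26e-12). Megf11, a transmembrane protein with repeated EGF-like domains, averaged 818 ± 166 CPM in OPC, with 2 UMIs in oligodendrocytes. The ratio of its summed shares was 154 (exact 95% counting interval 42.3 to 1280). The zinc finger factor Myt1 averaged 604 ± 68.0 CPM in OPC and 9.51 CPM in oligodendrocytes (log2 difference 5.64 ± 0.43, adjusted p = 2.42e-10). Sema5b, Afap1l2, Myo16, Olfm2, Vxn and Kcnip3 completed the named genes, at 272 to 457 CPM in OPC and with 1 to 3 UMIs each in oligodendrocytes.

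Of the 8 genes named as lowest in OPC relative to oligodendrocytes, Prr5l was in the mature oligodendrocyte list and St18 among the lineage factors. St18, a zinc finger factor related to Myt1, stood at 2446 to 4008 CPM in the 5 oligodendrocyte libraries and had 2 UMIs in all OPC, a ratio of summed shares, oligodendrocytes over OPC, of 697 (193 to 5760). Prr5l had 709 UMIs in oligodendrocytes and none in OPC, and was at least 228-fold lower in OPC. Sec14l5, Anln and Synj2 also had no UMI in OPC and were at least 98.9-fold, 58.3-fold and 48.3-fold lower. D7Ertd443e, Kndc1 and Daam2 had 1 or 2 UMIs in OPC, at means of 1176, 1373 and 879 CPM in oligodendrocytes.

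Structural myelin genes followed the same direction with traces left in OPC. Mbp, the myelin basic protein, stood at 21.8, 0 and 67.4 CPM in the fed OPC and 113.7 and 84.9 CPM in the fasted OPC, against 3909 to 6888 CPM in oligodendrocytes (log2 difference -6.56 ± 0.36, adjusted p = 3.13e-12). Every OPC library lay far below every oligodendrocyte library. Mbp also stood at 91.2 CPM in inhibitory neurons, and the share of free RNA in the OPC values was not tested. Gjc3, which encodes connexin 29, was the nearest of the list, at 408 ± 199 CPM in OPC and 635 CPM in oligodendrocytes (log2 difference -0.63 ± 0.26, adjusted p = 0.0425, libraries overlapping), and it was absent from astrocytes, with 0 UMIs.

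Of 11 lineage transcription factors tested against oligodendrocytes, 6 were higher in OPC and 3 lower, beside 30.1% and 28.9% of all tested genes. Sox6, a factor that holds precursors back from differentiation, stood at 2643, 2331, 1936, 2115 and 2326 CPM in OPC (fed replicates first) and 23.4 to 88.9 CPM in oligodendrocytes, without overlap (5.29 ± 0.32, adjusted p = 8.26e-12). Its partner Sox5 averaged 1667 CPM against 95.8 CPM (4.22 ± 0.33). Sox10, needed in both stages, stood closer in both classes, at 355 ± 42.6 CPM in OPC and 217 CPM in oligodendrocytes, and the libraries overlapped (0.90 ± 0.33, adjusted p = 0.0237). Tcf4 and Nfib were also called, by 0.73 ± 0.22 and 0.69 ± 0.25, and Npas3 by 2.51 ± 0.27.

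Myrf, the master regulator of myelination, was one of the 3 lower factors. It stood at 21.8, 0, 33.7, 0 and 8.49 CPM in OPC and at 164 to 384 CPM in oligodendrocytes (-4.23 ± 0.57, adjusted p = 1.03e-06). Zfp536, a repressor, averaged 242 CPM in OPC and 2896 CPM in oligodendrocytes (-3.64 ± 0.28), and St18 was the other. Olig1 and Olig2, the basic helix-loop-helix factors of the lineage, did not pass the filter against oligodendrocytes. Olig2 stood at 65.5, 126, 50.5, 125 and 136 CPM in OPC, above every oligodendrocyte library (0 to 41.0 CPM).

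Genes of the committed precursor stage were only partly present. Of the list of 13, 7 of 10 tested genes were higher than in inhibitory neurons (8.69% of all tested genes) and 3 of 5 were higher and 1 lower than in astrocytes (27.7% and 26.7%). Against oligodendrocytes 1 of 6 was higher and 1 lower (30.1% and 28.9% of all tested genes), with Itpr2 higher in OPC (673 against 58.2 CPM, 2.94 ± 0.40) and Sirt2 lower (175 against 410 CPM, -1.21 ± 0.30). Bcas1 was found in 55 of 60 OPC with 216 UMIs in all, and its 584 ± 155 CPM lay within the spread of oligodendrocytes (755 CPM). Gpr17, a receptor that is transient in committed cells, had 37 UMIs in 23 OPC. Enpp6 and Mycl had 0 UMIs in OPC and Bmp4 had 1, which at this depth allows up to 3 counts of 382110 for a gene at 0.

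Cell cycle transcripts were nearly absent. The 16 genes together gave 39 UMIs in 24 of the 60 OPC. Mki67, Cdk1, Ccnb1, Ccna2, Bub1 and Pcna had 0 UMIs, and Top2a had 1. Ccnd1, a D-type cyclin that also marks non-dividing precursors, accounted for 27 of the 39, in 18 nuclei, at 21.8, 56.2 and 185 CPM in the fed OPC and 45.5 and 59.4 CPM in the fasted OPC. Of 3 genes of the list tested against inhibitory neurons, 1 was higher in OPC and 1 lower (0 lower with DESeq2). Of all tested genes 8.69% were higher and 17.9% lower. Ccnd1 was the higher one (5.11 on the log2 scale), and it averaged under 3 CPM in each library of these neurons.

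Growth factor receptors included Erbb4, a receptor of neuregulins. It averaged 4444 ± 1366 CPM in OPC and 2900 CPM in oligodendrocytes, with overlapping libraries (0.58 ± 0.20, adjusted p = 0.0157), and 955 CPM in inhibitory neurons. The neurotrophin receptors Ntrk3 and Ntrk2 averaged 1005 and 802 CPM in OPC, against 121 and 142 CPM in oligodendrocytes, and were called by 3.02 ± 0.30 and 2.40 ± 0.31. Fgfr2, a fibroblast growth factor receptor, was lower in OPC, at 98.0 against 726 CPM (-2.77 ± 0.31). With Igf1r (0.83 ± 0.27), 4 of the 5 tested members were thus higher than in oligodendrocytes and 1 was lower, beside 30.1% and 28.9% of all tested genes. Against astrocytes the list went the other way, with 2 of 10 tested genes higher in OPC and 6 lower (median -1.07), beside 27.7% and 26.7%. Against inhibitory neurons 8 of 21 were higher and 2 lower, beside 8.69% and 17.9%.

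All 11 tested genes of the proteoglycan and matrix list were higher in OPC than in oligodendrocytes (median 4.77), where 30.1% of all tested genes were. Against inhibitory neurons 14 of 17 were higher and 1 lower (median 2.64), where 8.69% of all tested genes were higher and 17.9% lower. Beside Tnr, Ptprz1, Xylt1, Vcan and Bcan they included Gpc5, a glypican, at 4637 ± 807 CPM in OPC, 173 CPM in oligodendrocytes and 291 CPM in inhibitory neurons. Cspg5 (neuroglycan C), at 544 CPM against 17.1 CPM in oligodendrocytes, and Chst11, a chondroitin sulfotransferase, at 949 CPM against 39.9 CPM, were called by 4.83 ± 0.38 and 4.57 ± 0.34. Against astrocytes 6 of 12 tested genes were higher in OPC and 3 lower, beside 27.7% and 26.7% of all tested genes, the lower including Gpc5 (-1.28 ± 0.15, with 11630 CPM in astrocytes). In the Notch pathway, Maml2, a coactivator of Notch, averaged 1847 CPM in OPC and 86.1 CPM in oligodendrocytes (4.22 ± 0.30), and Dner was the other tested gene and was also higher (2.17 ± 0.36), while against astrocytes 1 of 4 tested genes was higher and 2 were lower.

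OPC against inhibitory neurons compared a small class with the dominant class of the dissection. Of 10739 tested genes, 26.5% were called, 933 (8.69%) higher and 1917 (17.9%) lower in OPC, and the median over all genes was -0.35 on the log2 scale. The libraries did not overlap for 8.27% of the genes with OPC higher and for 18.1% with OPC lower. With RLE size factors in place of TMM, 1069 were higher and 1567 lower, and the median of all genes was -0.21. DESeq2, which changes both the scaling and the test, called 955 higher and 1202 lower. With every sum thinned to the smallest one, which also left 957 genes to test, 284 were higher and 277 lower. The OPC sums were far shallower than the neuronal ones (382110 against 68637983 UMIs), so low genes were tested with little precision in OPC.

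Of the 12 genes named as highest over neurons, 7 were in the OPC identity, lineage factor, committed precursor or myelin lists. Sox10 had 135 UMIs in the 60 OPC and 31 in the 4213 inhibitory neurons, at 306, 407, 387, 353 and 323 CPM in OPC and at most 0.684 CPM in neurons (9.42 ± 0.38, adjusted p = 7.94e-131). Neu4 (9.29 ± 0.45), Bcas1 (8.09 ± 0.28), Matn4, a matrilin (7.75 ± 0.29), Olig2 (7.67 ± 0.49) and C1ql1, a secreted C1q-like protein (7.37 ± 0.46), came from the same lists. Sema3d, a secreted semaphorin, averaged 544 ± 217 CPM in OPC and 1.89 CPM in neurons (7.88 ± 0.28). Susd5, Afap1l2, Cp (ceruloplasmin, a ferroxidase), Gjc3 and Zcchc24 completed the 12, at 132 to 408 CPM in OPC.

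Iqsec3, a guanine exchange factor of inhibitory synapses, was among the lowest genes against neurons. It had 8694 UMIs in inhibitory neurons and 0 in OPC, and was at least 16.1-fold lower, a bound that does not set its rank among the genes below. St6galnac5, Zfp831, Jakmip1 and Galnt18 had 1 or 2 UMIs each in OPC, and the ratios of summed shares, neurons over OPC, were 41.8 to 57.7 with counting intervals from 7.60 upward.

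The lists of receptors, channels, adhesion and guidance molecules were compared with both classes, and their counts stand beside 30.1% higher and 28.9% lower of all tested genes against oligodendrocytes and 8.69% higher and 17.9% lower against inhibitory neurons. Of 17 glutamate receptor genes tested against oligodendrocytes 11 were higher in OPC and 2 lower, and of 25 tested against inhibitory neurons 4 were higher and 13 lower. At equal depth the second split was 6 higher and 7 lower. Grin3a, an NMDA receptor subunit, stood at 808, 885 and 589 CPM in the fed OPC and 762 and 654 CPM in the fasted OPC, against 0 to 70.3 CPM in oligodendrocytes and 104.8 to 152.9 CPM in inhibitory neurons. OPC thus lay above both of these classes without overlap, by 4.76 ± 0.38 over oligodendrocytes (adjusted p = 5.34e-10) and 2.33 ± 0.18 over neurons (adjusted p = 1.71e-38). Cacng4, an auxiliary subunit of AMPA receptors, and Grik1, a kainate receptor subunit, were also higher than in neurons, by 1.96 ± 0.20 and 1.53 ± 0.18.

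Other subunits of ionotropic receptors differed in their direction. Of the AMPA receptor genes, Gria2 and Gria4 averaged 1399 and 1389 CPM in OPC, against 1456 and 1202 CPM in inhibitory neurons (-0.27 ± 0.15 and 0.01 ± 0.15, adjusted p = 0.177 and 0.976). Gria1 stood at 297 to 455 CPM in OPC and 3404 to 4079 CPM in neurons (-3.48 ± 0.17, adjusted p = 3.6e-90), and it did not differ from oligodendrocytes beyond the library spread (adjusted p = 0.294). The NMDA receptor genes Grin2b, Grin2a and Grin1 averaged 108, 73.9 and 57.6 CPM in OPC and were lower than in neurons (log2 differences of -3.96 ± 0.21, -3.75 ± 0.24 and -3.22 ± 0.26). Grm3, a metabotropic receptor, averaged 31.9 CPM in OPC against 1196 CPM in oligodendrocytes (-5.26 ± 0.41) and 1701 CPM in astrocytes.

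GABA receptor genes were lower in OPC than in inhibitory neurons in 11 of 14 tested, with none higher (median -1.61, or -1.54 with the gene at 0 in OPC at its bound). Gabrg3 and Gabrb1 stood at 625 and 594 CPM in OPC and 1572 and 1365 CPM in neurons. Against oligodendrocytes Gabrg3, Gabrb1 and Gabrb2 were higher (1.30 ± 0.30, 0.77 ± 0.28 and 2.06 ± 0.38) and Gabbr1, a GABA-B receptor, was lower (82.1 against 346 CPM), out of 5 tested.

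Ion channels gave 3 higher and 15 lower of 26 tested against inhibitory neurons, and 13 higher and 2 lower of 17 against oligodendrocytes. Kcnd2, an A-type potassium channel, averaged 4799 ± 783 CPM in OPC, above both oligodendrocytes (728 CPM, 2.76 ± 0.24) and neurons (2664 CPM, 0.64 ± 0.13). The others higher than in neurons were Kcnj10 and Kcnj16, inward rectifiers of glia, at 67.0 and 37.1 CPM in OPC and 1.04 and 0.733 CPM in neurons. Kcnip4, which encodes a potassium channel interacting protein, was lower in OPC than in both classes, by -3.14 ± 0.15 against neurons and -0.72 ± 0.23 against oligodendrocytes, where its libraries overlapped.

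Among adhesion molecules and synaptic organizers, Lrrc4c, a ligand of netrin-G, stood at 9064, 10180 and 6719 CPM in the fed OPC and 9972 and 9356 CPM in the fasted OPC, against 586 to 1691 CPM in oligodendrocytes and 1346 to 1770 CPM in neurons. It exceeded every library of both classes, by 2.89 ± 0.25 and 2.35 ± 0.14. Csmd1 and Nlgn1 averaged 7827 and 6630 CPM in OPC and were higher than in neurons by 0.46 ± 0.13 and 0.58 ± 0.13. Dscam, an adhesion molecule of the immunoglobulin family, averaged 4531 CPM in OPC, 264 CPM in oligodendrocytes and 862 CPM in neurons. In all, 18 of 25 tested were higher and 4 lower than in oligodendrocytes, and 16 of 27 were higher and 7 lower than in neurons, Cntnap2 being lower than both (-0.54 ± 0.22 and -2.81 ± 0.16). Since introns were counted, a level depends on gene length, and levels are to be read between classes and not between genes.

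**Figure D3:**
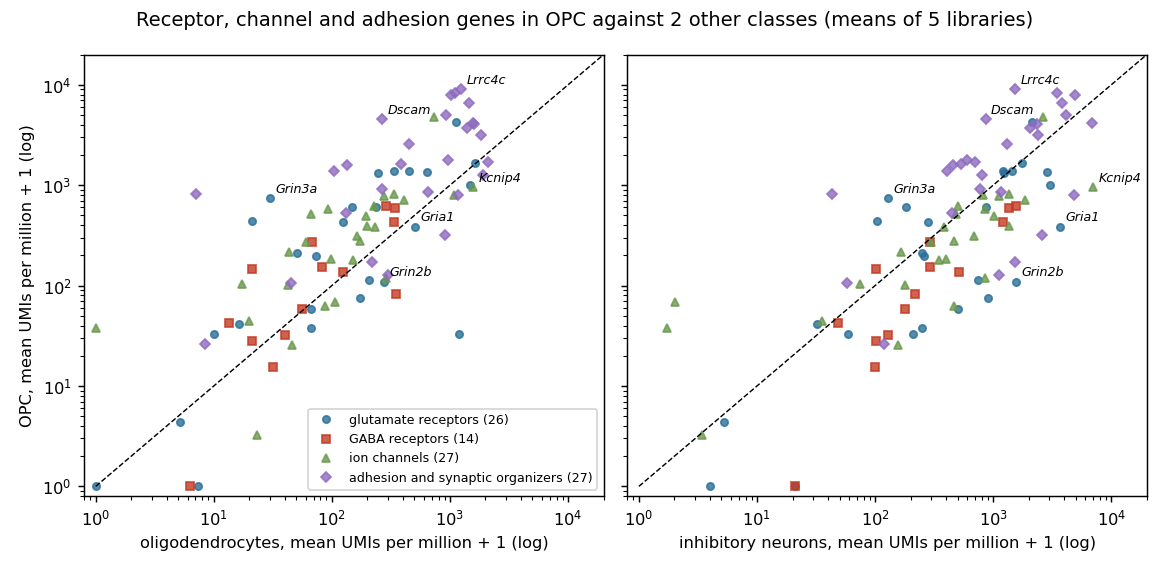
Each point is a gene of the glutamate receptor (26), GABA receptor (14), ion channel (27) or adhesion (27) list, with its mean level over 5 libraries in OPC (y axis, CPM plus 1, log scale) against oligodendrocytes (left) or inhibitory neurons (right), and the dashed line marks equal levels. Grin3a, Dscam and Lrrc4c lie above the line in both panels, while Gria1 and Grin2b lie below it, furthest against neurons.

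Axon guidance genes were lower in OPC than in inhibitory neurons in 19 of 32 tested and higher in 9. Sema3d, Dcc (a netrin receptor, 2242 CPM in OPC and 983 CPM in neurons, 0.99 ± 0.14) and its ligand Ntn1 (265 CPM and 18.8 CPM, 3.49 ± 0.28) were among the higher. Efna5, Unc5d, Robo2 and Plxna4 were among the lower (-3.34 ± 0.29, -3.07 ± 0.20, -2.96 ± 0.24 and -2.78 ± 0.22). Against oligodendrocytes 6 of 10 tested were higher and 3 lower, with Sema3d (4.77 ± 0.40) and Sema6d (2.07 ± 0.24) the furthest above.

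Metabolic lists were counted beside the same shares of all tested genes. Of 20 insulin, FoxO and nutrient genes tested against neurons 2 were higher, among them Igf1r (0.94 ± 0.20), and 2 were lower. Of 7 tested against oligodendrocytes 2 were higher and 1 lower. Of the cholesterol and fatty acid genes 3 were tested against oligodendrocytes and all were called, where Acaca and Scd2, both of fatty acid synthesis, were lower in OPC (-1.69 ± 0.28 and -1.47 ± 0.30) and Apoe was higher (0.94 ± 0.39, adjusted p = 0.0421). Against neurons 4 of 23 were higher and 3 lower. Of the glucocorticoid and clock genes, 3 of 6 were lower than in oligodendrocytes and none higher, with Tsc22d3 at -4.03 ± 0.52. Against neurons 2 of 22 genes of this list were higher and 2 lower. Mertk, a phagocytic receptor, was among the higher (364 against 7.01 CPM, 5.50 ± 0.28). Its OPC counts varied, at 11, 31 and 1 UMIs in the fed and 43 and 75 in the fasted libraries. Astrocytes, with 359962 UMIs in all against 382110 in OPC, held more Mertk, at 64, 291 and 93 UMIs fed and 120 and 251 fasted. Cytoplasmic ribosomal protein genes were called higher than in neurons in 1 of 79. Nuclear-encoded respiratory chain genes were called lower in 2 of 74 (1 with RLE size factors and 0 with DESeq2). Of 13 mitochondrially encoded genes 9 were higher in OPC, but their sum was part of the cut that chose the nuclei. The median mitochondrial share was 0.404% in OPC and 0.136% in inhibitory neurons, so OPC lay nearer the cut. The count of 9 is therefore a description and not a test of the classes.

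Astrocytes, the other glial class of the dissection, differed from OPC in 54.4% of 1453 tested genes, 403 (27.7%) higher and 388 (26.7%) lower in OPC, with libraries that did not overlap for 21.1% and 21.4%. Sox10, Gjc3, Ppfibp1, Olfm2, Itga9, Emid1, Sh3bp4 and Reep1 had 0 UMIs in the 79 astrocytes, and Ppfibp1, a liprin, was at least 63.4-fold higher in OPC at 539 ± 125 CPM. Phkg1, Prdm16, Slco1c1 (a thyroid hormone transporter), Slc7a11 (a cystine and glutamate exchanger) and Gli2 (a mediator of hedgehog signalling) had 0 UMIs in the 60 OPC and were at least 40.7-fold to 75.4-fold lower, and Lama2, a laminin chain, had 2 UMIs. All 7 tested astrocyte markers were lower in OPC, with Slc1a2 at -4.81 ± 0.20. Against inhibitory neurons 4 of 5 tested astrocyte markers were higher in OPC, beside 8.69% of all tested genes. Against oligodendrocytes 2 of 3 were higher, beside 30.1%, and none was lower in either comparison.

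Across the 20 sums of 4 classes and 5 libraries, the genes whose level followed the summed Pdgfra and Cspg4 most closely were Susd5 (Pearson r = 0.915 of log2 CPM + 1), Neu4 (0.913), C1ql1 (0.903), Emid1 (0.894) and Gucy2f (0.891), out of 1913 genes of at least 100 CPM in OPC. The OPC sums were gated on these 2 genes, so any gene enriched in OPC follows them by construction. The sums of a library share that library's preparation and depth, and these values are given as a description.

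Fasting was compared over the OPC sums of 3 fed and 2 fasted libraries. Of 1594 tested genes, 0.188% (3 genes) were called at an adjusted p under 0.05 by edgeR's quasi-likelihood test, all 3 higher in the fasted libraries, and 0 were lower. At an unadjusted p under 0.05 there were 106 genes. The fasted values lay wholly above the fed values for 10.9% of the tested genes and wholly below for 11.9%. A lack of overlap, given for single genes below, was thus common in both directions and does not by itself set a gene apart.

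Tafa1, which encodes a small secreted protein of the chemokine-like TAFA family (GRCm39, chr6:96090088-96635542), stood at 633, 618 and 371 CPM in the fed OPC and at 1626 and 2539 CPM in the fasted OPC. Both fasted libraries were above all 3 fed ones. It rose by 1.97 ± 0.27 on the log2 scale (± SE, edgeR adjusted p = 3.65e-04), from 95 UMIs to 442. A Tafa1 UMI was found in 8 of 10, 10 of 12 and 7 of 9 fed OPC and in 11 of 11 and 17 of 18 fasted OPC, and no fasted nucleus held more than 21.0% of its library's Tafa1 UMIs. The increase was therefore spread over nuclei.

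Adarb2, a member of the family of RNA-editing adenosine deaminases (chr13:8252897-8818800), stood at 1573, 2177 and 1920 CPM in the fed OPC and 3639 and 3855 CPM in the fasted OPC. The groups did not overlap, every OPC of the 5 libraries held a UMI, and the gene rose by 0.98 ± 0.19 on the log2 scale (adjusted p = 0.0147).

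Hif3a, a hypoxia-inducible factor subunit (chr7:16764918-16796352), stood at 0, 14.04 and 0 CPM in the fed OPC and 216 and 204 CPM in the fasted OPC. It was seen in 1 of the 31 fed OPC and in 7 of 11 and 13 of 18 fasted OPC, with 1 UMI against 43. The ratio of summed shares was 36.9 (exact counting interval 6.27 to 1490), and the fitted rise was 4.86 ± 0.93 on the log2 scale (adjusted p = 0.0147). Since it passed the filter on low counts through the fasted libraries, it had to differ, and its fold carries the uncertainty of a single fed UMI.

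A supplementary legend of the study names shared preparation batches for its first fed and fasted datasets and for its second ones. Taking these as the replicates of the same number, a match of names that the labels do not state, the fasted library of each batch held the higher level of all 3 genes, which follows from groups that do not overlap and adds nothing to the calls. The calls rested on few libraries. Without fed replicate 2 none of them was called (adjusted p = 0.061, 0.061 and 0.0917 for Tafa1, Adarb2 and Hif3a). Without fed replicate 1 only Tafa1 was called, and without fed replicate 3, the older Htr2a-Cre library, all 3 were. Leaving out either fasted library also left only Tafa1 called, but there the spread came from the fed libraries alone and the lone fasted library was assumed to vary like them. With DESeq2 Hif3a was not called (adjusted p = 0.114), at equal depth it did not pass the filter and was not tested, and with nuclei of up to 2 Gad1 and Gad2 UMIs admitted Adarb2 was not (adjusted p = 0.287).

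In the other classes the 3 genes had other levels. Tafa1 stood at 0, 13.7, 160, 0 and 43.5 CPM in oligodendrocytes (fed replicates first), 26.9, 68.7, 96.0, 137 and 173 CPM in astrocytes and 102 to 145 CPM in inhibitory neurons. Adarb2 was at most 167 CPM in oligodendrocytes and 137 CPM in astrocytes, with fed and fasted libraries overlapping in both, and 478 to 956 CPM in neurons. Hif3a stood at 32.0, 157 and 0 CPM in fed and 164 and 254 CPM in fasted oligodendrocytes, at 188, 491, 219, 525 and 384 CPM in astrocytes, and under 5 CPM in neurons. In neurons it had 13, 22 and 37 UMIs of 6131927, 14573917 and 17037541 fed, and 25 and 101 of 5849689 and 25044909 fasted. Both fasted libraries thus lay above the fed ones for Hif3a in oligodendrocytes and neurons, and for Tafa1 in astrocytes. Fed and fasted libraries overlapped for Hif3a in astrocytes, for Tafa1 in oligodendrocytes and neurons, and for Adarb2 in neurons. Fasting was not tested within these classes. A difference between OPC and oligodendrocytes in the response to fasting was tested as an interaction over 2212 genes, and 0 genes (0%) were called by edgeR's quasi-likelihood test, 0 by its likelihood ratio test and 0 by DESeq2, with 122 at an unadjusted p under 0.05 in the first. The interaction estimate was 2.43 ± 1.05 for Tafa1 (adjusted p = 0.777), 3.27 ± 1.21 for Hif3a (adjusted p = 0.532) and 0.65 ± 0.64 for Adarb2 (adjusted p = 0.979), so a response particular to OPC was not shown.

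**Figure D4:**
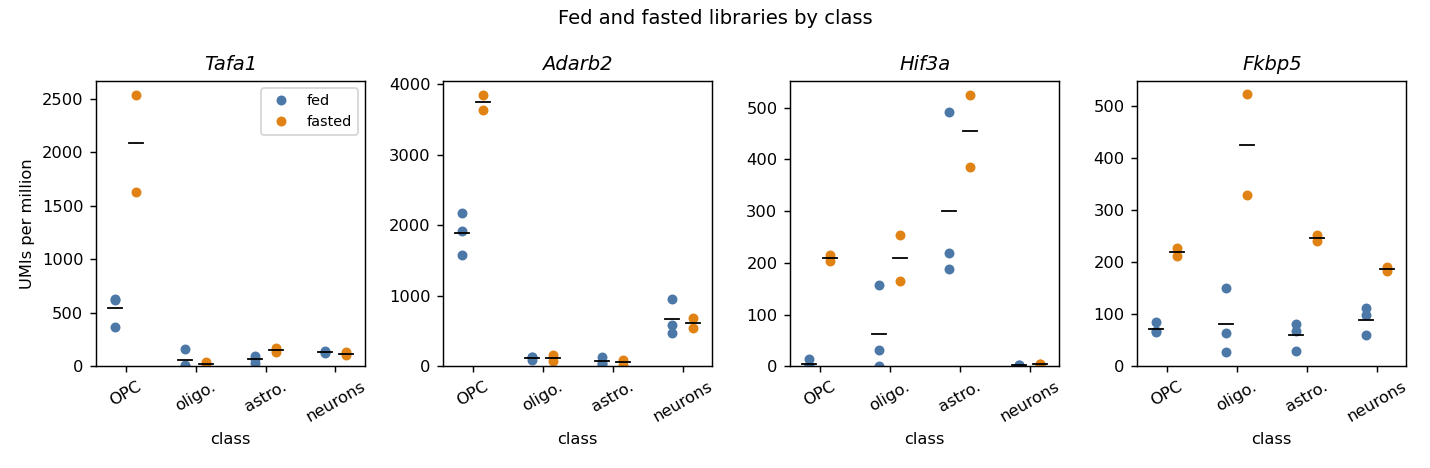
Points show the level of Tafa1, Adarb2, Hif3a and Fkbp5 in CPM (linear scale, one panel a gene) in fed (blue, 3) and fasted (orange, 2) libraries for OPC, oligodendrocytes, astrocytes and inhibitory neurons, with bars at the group means. In OPC the fasted points of all 4 genes lie above the fed points, and Fkbp5 was not called in OPC.

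No gene of the lists was called with fasting by edgeR's quasi-likelihood test as set here, while Erbb4, mt-Co1, mt-Co2, Mertk and the ribosomal gene Rps29 were called in some alternatives. Fkbp5, a chaperone gene induced by glucocorticoids, stood at 65.5, 84.3 and 67.4 CPM in the fed OPC and 227 and 212 CPM in the fasted OPC, without overlap (1.56 ± 0.48, adjusted p = 0.401). The fasted libraries also lay above the fed ones in oligodendrocytes (26.6 to 151 CPM fed, 328 and 523 CPM fasted), astrocytes (29.5 to 80.6 CPM fed, 251 and 240 CPM fasted) and neurons (60.3 to 111 CPM fed, 184 and 191 CPM fasted). The glucocorticoid and clock list had 7 tested genes and a median of 0.39, beside 0.00 for all genes. The insulin, FoxO and nutrient list had 7 tested genes, a median of 0.01 and none at an unadjusted p under 0.05. Erbb4 reached 0.73 ± 0.17 (adjusted p = 0.104) and was called in 6 alternatives (the likelihood ratio test, no low-count filter, equal depth, gates of 2 and of 5 UMIs, and a Pdgfra UMI required). Vcan reached 0.70 (adjusted p = 0.548). Among lower genes the smallest p was that of Anks1b, a postsynaptic scaffold gene singled out after the values were seen, at 5919, 6684 and 5793 CPM fed and 4184 and 4067 CPM fasted (-0.57 ± 0.16, adjusted p = 0.232).

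The identity and lineage lists had medians near that of all genes. The OPC identity list had 11 tested genes with a median of 0.05 on the log2 scale and 2 at an unadjusted p under 0.05, the lineage factors 9 with a median of -0.14, and none was called. Proteoglycan, glutamate receptor, ion channel and adhesion lists, of 13, 17, 19 and 25 tested genes, each had 2 at an unadjusted p under 0.05, as did the axon guidance list of 11, beside 106 of all 1594 tested genes. The glucocorticoid and clock list had 2 of 7. The mitochondrially encoded list had 6 of 9, a description, since the sum of these genes was part of the cut on nuclei.

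The summed levels of mitochondrially encoded and ribosomal protein transcripts lay above the fed libraries in both fasted libraries. The mitochondrial list summed to 2490, 2738 and 3199 CPM in the fed libraries and 5822 and 4890 CPM in the fasted ones, and the cytoplasmic ribosomal protein list to 2206, 1334 and 1381 CPM and to 3286 and 3260 CPM. None of the 9 tested mitochondrial genes was called, and the single tested ribosomal gene, Rpl13, had a log2 difference of -0.57. Of the mitochondrial genes mt-Co1 reached 1.38 (adjusted p = 0.104) and mt-Co2 1.24 (adjusted p = 0.152). With the replicate number as a block mt-Co2 was called, and it was also called in 6 other alternatives and mt-Co1 in 5. The nuclei were chosen by a cut on the sum of these genes, which bounded their levels. The calls of mt-Co1 and mt-Co2 are therefore a description and not a test of fasting. The median share of mitochondrially encoded UMIs per OPC was 0.272%, 0.284% and 0.395% fed and, nearer to the cut, 0.609% and 0.480% fasted. These values moved with the feeding state, and their part in the fasting results was not tested.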

How the data were processed

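Nuclei of the CeA were profiled with 10x Chromium 3′ chemistry. Per the file headers and the study's methods, the authors made the deposited UMI counts with Cell Ranger 5.0.0, counting introns, against GRCm39 with Ensembl 105 annotation and added Cre and mCherry sequences. The submitters' processing notes also name mm10 and Cell Ranger 2.1.1, so the build is taken from the headers and the methods. Here the counts were summed per library and class, without removal of free RNA. Library totals ran from 17321997 to 53146326 UMIs over all barcodes.

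The gate is that given in the report, with 500 to 8000 genes and under 0.8% mitochondrially encoded UMIs per nucleus. Scrublet (scanpy 1.11.5) called 70 of 7161 nuclei doublets (0.978%), none of them OPC, and all were kept. Sums were tested with edgeR 4.0.16 in R 4.3.3 (filterByExpr, TMM, quasi-likelihood test, Benjamini-Hochberg adjustment over all genes tested, called under 0.05), with library as a block between classes and without a block between feeding states. Gate genes left the test before adjustment. SE was the absolute log2 difference divided by the square root of F. The alternatives were a likelihood ratio test, DESeq2 1.42.0, RLE size factors, no low-count filter, equal depth, other gates and quality bounds, the replicate block and each library left out. The code was tested on simulated data.

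Members, gene lists and tests were chosen with earlier results of these data known. Named genes were, among called genes whose libraries did not overlap and with a mean of at least 100 CPM in the higher class, the largest folds: 14 higher and 8 lower against oligodendrocytes, 12 and 6 against inhibitory neurons, 8 and 6 against astrocytes, up to 12 in each direction for fasting, members of the lists, and the 5 genes most correlated with Pdgfra and Cspg4. Gate, mitochondrially encoded and Y-linked genes and unnamed gene models were not ranked. Some genes named by these rules are not reported here.

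A supplementary legend of the study gives a shared preparation batch for its first fed and fasted datasets and another for its second ones. These were taken as the replicates numbered 1 and 2 in the labels, by name, and fed replicate 3 as the remaining dataset by elimination, so the numbers pair these libraries only if that match holds. Deviations of same-numbered OPC sums from their group means correlated by 0.0272 in pair 1 and -0.0023 in pair 2 over 1594 genes. Promoter windows were found for 22383 of 22532 genes (99.3%).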

Additional observations from a re-analysis of the deposited data

Results flagged for a closer look

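The OPC of fed replicate 3 held mCherry, a transcript of the injected reporter that no comparison used. Its level there was 101.0 CPM, from 6 UMIs in 1 of 9 nuclei, and it had 0 UMIs in the OPC of the other 4 libraries, which had not received the virus. In the same library mCherry had 1 UMI in oligodendrocytes (26.6 CPM), 4 UMIs in 1 astrocyte nucleus (54.8 CPM) and 2714 UMIs in 348 of 1013 inhibitory neurons (34.4%, 159 CPM). No Cre UMI was found in OPC. The source of the mCherry UMIs in the single OPC nucleus was not tested.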

How the results depend on the processing

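With 60 OPC in 5 libraries, transcripts below a few UMIs per library could not be compared, and the fasting test had 3 libraries against 2. The 3 fasting calls became 9 with the likelihood ratio test, 10 without the low-count filter, 8 with a gate of 2 UMIs, 6 with a gate of 5 UMIs and 6 with a Pdgfra UMI required. At equal depth 4 genes were called, without Hif3a, which was not tested there. The count ranged from 0 (without fed replicate 2) to 3 (without fed replicate 3) when a library was left out. With the replicate block 4 genes were called, mt-Co2 being added, and the block changed no other call. The interaction gave 0 calls except without fed replicate 2, where it gave 6, so the range was 0 to 6.

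Counts of calls between classes moved as follows. Without the low-count filter 1549 genes were called against oligodendrocytes and 1427 against astrocytes, and at equal depth 381, 443 and 561 were called against oligodendrocytes, astrocytes and inhibitory neurons. Leaving out a library gave 606 to 950 calls against oligodendrocytes, 681 to 864 against astrocytes and 2313 to 2553 against inhibitory neurons.

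The share of OPC with a UMI moved with the depth to which nuclei were thinned, for the genes listed first here. At 1000 UMIs it was 53.8% for Pdgfra, 50.2% for Cspg4, 91.7% for Ptprz1, 29.8% for Sox10, 10.7% for C1ql1, 33.6% for Matn4, 17.6% for Neu4, 88.1% for Sox6 and 45.6% for Bcan. At 4000 UMIs it was 94.0% for Cspg4, 95.1% for Vcan, 26.2% for Olig1, 79.3% for Sox10, 71.3% for Cacng4, 45.8% for C1ql1 and 51.8% for Neu4. The shares at 4000 UMIs come from 49 OPC, with 11 shallower ones left out. From 2000 to 4000 UMIs the share did not rise for Olig2 (25.3% and 24.0%) or Sox6 (98.9% and 98.0%). Tnr and Lhfpl3 stayed at 100%. The difference in OPC share between fasted and fed libraries lay between -0.208 and 0.186 percentage points over the alternatives.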
